A study of Macaca mulatta with 6 samples.

Results

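A set of 10 genes widely used to mark pericytes and mesenchymal stromal cells was followed in cultured rhesus monkey testicular cells. They were taken by gene symbol from the deposited count table: RGS4, RGS5, CSPG4, MCAM, ANPEP, THY1, NT5E, ABCC9, PDPN and LEPR. All 10 were among the 17795 genes listed, and 9 were among the 11539 genes with enough counts to be tested. LEPR was the 1 gene under that filter.

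The libraries are bulk mRNA sequencing of rhesus monkey (Macaca mulatta) testicular cells that the study grew as spermatogonial stem cells (SSCs) in droplets of basement membrane hydrogel. The PDGF group comprised 3 libraries from cultures given platelet-derived growth factor (PDGF), and the PDGFNO group comprised 3 libraries from cultures without it. By the study's culture methods the shared medium held serum, GDNF, EGF, bFGF and LIF, so neither group was free of growth factors, and the sample labels name the tissue only as testis and give no genotype. The labels put replicate 1 of each group in batch 1 and replicates 2 and 3 in batch 2. Donor, age, days in culture and any cell sorting are not given in the labels, and neither is whether the replicates of a group were separate cultures, so the p-values below measure the spread between these libraries, which may be technical.

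Pericytes are the mural cells that wrap small vessels inside a shared basement membrane, and they are classically recruited and maintained by PDGF-B acting on the receptor PDGFRB. No single gene defines them. RGS5, CSPG4 (also called NG2), MCAM (CD146) and ABCC9 are used together for pericytes, whereas ANPEP (CD13), NT5E (CD73) and THY1 (CD90) are surface proteins by which cultured mesenchymal stromal cells are recognised, and PDPN and LEPR mark subsets of fibroblasts and stromal cells. In the testis, cells of this kind lie around the tubules and along the interstitial vessels. In bulk RNA, fewer cells of a type and less RNA per cell cannot be told apart.

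The 10 genes did not move as one group. RGS4 was 5.33-fold, RGS5 3.84-fold, NT5E 2.66-fold, MCAM 1.94-fold and ANPEP 1.57-fold higher in PDGF, whereas PDPN was 1.93-fold higher in PDGFNO. CSPG4, ABCC9 and THY1 did not pass the test without a replicate block, and LEPR was close to the limit of detection in both groups. With edgeR's quasi-likelihood test and a Benjamini-Hochberg adjusted p under 0.05 over all genes tested, 5 of the 9 tested markers were higher in PDGF, where 7.61% of all genes were, and 1 was lower, where 10.7% of all genes were. Their median log2 fold change was 0.78, beside 0.02 over all genes tested. The groups did not overlap in 8 of the 9: all PDGF libraries lay above all PDGFNO libraries for 6 markers (18.2% of all genes) and below them for 2 (19.3% of all genes).

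The same-numbered libraries of both groups share a batch, and in a fit with that number as a replicate block 7 of the 9 markers were higher and 2 were lower. That fit called far more genes in general, 31.1% of all genes higher and 29.0% lower, so the count of 9 is read against those shares. The values in every library are plotted by marker and batch in CPM, the counts scaled to a common library size by TMM.

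**Figure D1:**
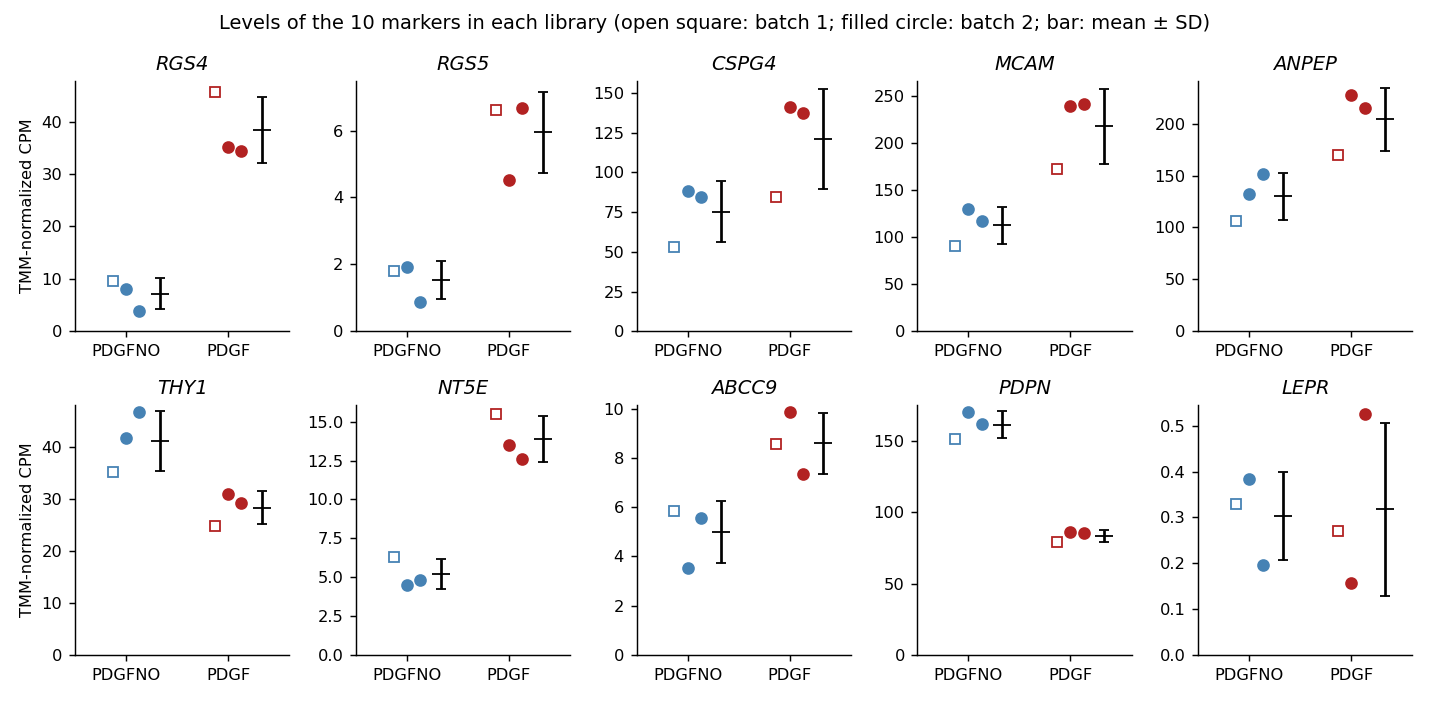
Level of each of the 10 markers in each library, in TMM-normalized CPM (linear axes from 0), with open squares for batch 1, filled circles for batch 2 and bars for the mean ± SD of 3 libraries. For RGS4 the PDGF libraries sit between 34.3 and 45.6 and the PDGFNO libraries between 3.82 and 9.53, for PDPN the order is turned, and for CSPG4 the groups overlap.

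The upstream sequences of 3 markers are shown because RGS4 and RGS5, neighbours in the genome, had the largest rises among the markers, and PDPN was the marker that was called lower without the replicate block. Each is the 250 bases before the annotated start of the gene, 5′ to 3′ on the gene's own strand, read from the RefSeq Mmul_10 genome (RGS4 chr1:20602457-20602706, plus strand; RGS5 chr1:20728557-20728806, minus strand; PDPN chr1:211343874-211344123, minus strand). Capitals mark a match to the hypoxia response core (ACGTG or GCGTG on either strand) in RGS4 and to the GC box (GGGCGG on either strand) in RGS5, and PDPN held no match to any motif searched.
RGS4: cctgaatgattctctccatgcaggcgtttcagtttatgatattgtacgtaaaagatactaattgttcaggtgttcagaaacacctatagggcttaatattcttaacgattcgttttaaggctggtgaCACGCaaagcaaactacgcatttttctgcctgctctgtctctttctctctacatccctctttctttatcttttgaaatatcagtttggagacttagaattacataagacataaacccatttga
RGS5: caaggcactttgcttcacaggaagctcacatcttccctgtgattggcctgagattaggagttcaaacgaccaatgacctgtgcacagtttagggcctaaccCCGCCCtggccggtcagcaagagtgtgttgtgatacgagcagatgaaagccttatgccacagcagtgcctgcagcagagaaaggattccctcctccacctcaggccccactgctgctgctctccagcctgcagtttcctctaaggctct
PDPN: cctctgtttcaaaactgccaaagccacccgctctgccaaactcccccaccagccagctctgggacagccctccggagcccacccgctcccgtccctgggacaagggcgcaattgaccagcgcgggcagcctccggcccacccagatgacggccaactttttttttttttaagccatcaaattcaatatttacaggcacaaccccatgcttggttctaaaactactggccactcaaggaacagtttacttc

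Across the 10 markers the hypoxia response core was found in 4 windows (RGS4, NT5E, ABCC9 and LEPR) and the GC box in 4 (RGS5, CSPG4, MCAM and LEPR), while 48.4% and 48.6% of 14935 such windows in the genome held them. The AP-1 site (TGANTCA), the CArG box of smooth muscle genes and TATAAA were found in none of the 10, and 4.77%, 1.01% and 8.26% of all windows held them. All motifs were read on both strands, and the hypoxia core overlaps the E-box CACGTG. A match says only that these letters are in the window.

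RGS4 and RGS5 encode small GTPase-activating proteins of the R4 family, which shorten signalling by G protein-coupled receptors. RGS5 is the most widely used of the pericyte markers. The genes lie on chromosome 1, RGS4 at chr1:20602707-20610936 and RGS5 at chr1:20669030-20728556 on the other strand, 58.1 kb apart.

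RGS4 stood at 45.6, 35.1 and 34.3 CPM in PDGF replicates 1, 2 and 3 and at 9.53, 8.14 and 3.82 CPM in the PDGFNO replicates. Every PDGF library was thus more than 3 times as high as the highest PDGFNO library. The log2 fold change was 2.41 ± 0.32 (SE, adjusted p = 0.00198 by edgeR), and it stayed between 2.12 and 2.67 whichever library was left out.

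RGS5 stood at 6.62, 4.54 and 6.69 CPM in PDGF and at 1.81, 1.92 and 0.882 CPM in PDGFNO. The counts behind these levels were 98, 58 and 89 in PDGF and 22, 20 and 9 in PDGFNO, so its fold is less precise than that of RGS4. The groups did not overlap, and the log2 fold change was 1.94 ± 0.35 (SE, adjusted p = 0.00781 by edgeR). A correction for GC content and transcript length brought it to 1.58 without the block (adjusted p = 0.0035 by edgeR) and 1.56 with it. Both RGS4 and RGS5 passed the test in all 6 fits that left out a library.

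The ratio of RGS4 to RGS5 counts was 6.90, 7.74 and 5.13 in the PDGF libraries and 5.27, 4.25 and 4.33 in the PDGFNO libraries. PDGF replicate 3 lay within the PDGFNO range, so the groups overlapped in this ratio. The longest run of identical bases between the longest transcripts of RGS4 and RGS5 was 14, and no 50-base stretch of either occurred in another annotated gene.

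Other R4 family genes moved in both directions. RGS1, best known from lymphocytes, was at 6.01, 5.16 and 4.13 CPM in PDGF and at 1.23, 0.766 and 0.882 CPM in PDGFNO (log2 fold change 2.39 ± 0.33, adjusted p = 0.00245 by edgeR). RGS8, a gene otherwise known from neurons, was at 2.46 ± 0.27 CPM in PDGF and 0.821 ± 0.233 in PDGFNO (SD, n = 3, log2 fold change 1.57, adjusted p = 0.0218 by edgeR). RGS3 went the other way, at 17.4, 19.1 and 20.7 CPM in PDGF and 34.2, 44.7 and 47.3 CPM in PDGFNO (log2 fold change −1.14 ± 0.18, adjusted p = 0.00429 by edgeR). Of the 8 other R4 genes listed, 3 were thus tested, 2 higher and 1 lower, RGS18 had no count in any library, and RGS2, RGS13, RGS16 and RGS21 were not analysed here. Over all genes tested, 7.61% were higher and 10.7% lower. The call of RGS8 did not hold without any 1 of the PDGF libraries or without PDGFNO replicate 3 (adjusted p of at most 0.0776).

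CSPG4 encodes a large chondroitin sulfate proteoglycan that spans the membrane of pericytes and of glial progenitors, and MCAM encodes an adhesion molecule of the immunoglobulin superfamily found on pericytes and endothelium. CSPG4 stood at 84.6, 141 and 137 CPM in PDGF and at 53.1, 88.3 and 84.6 CPM in PDGFNO. Batch 1 was the lower batch in both groups, and PDGF replicate 1 fell among the PDGFNO libraries of batch 2. The log2 fold change of 0.68 ± 0.26 did not pass without a block (adjusted p = 0.105 by edgeR). With the replicate block the fold was the same, 0.68, its SE was 0.06 and the adjusted p was 2.1e-09. Without PDGF replicate 1 the unblocked log2 fold change was 0.90 (adjusted p = 0.0273 by edgeR).

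MCAM stood at 172, 240 and 242 CPM in PDGF and at 90.6, 130 and 117 CPM in PDGFNO, with no overlap between the groups. Its log2 fold change was 0.95 ± 0.19 (SE, adjusted p = 0.0125 by edgeR). The call was lost narrowly without PDGF replicate 2 (adjusted p = 0.0505) or PDGF replicate 3 (adjusted p = 0.0507), while the log2 fold change remained at 0.89 and 0.88.

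Reads of both genes may be shared in part with other loci. Of the 50-base stretches of the CSPG4 transcript 7.89% also occurred in other annotated genes, and 2.21% of those of MCAM did. MCAM, at chr14:112380788-112390048, shares 278 of its 4259 exonic bases with CBL on the opposite strand, and it is not stated whether counting used strand. CBL, a ubiquitin ligase of receptor tyrosine kinases, was itself at 50.9 CPM on average in PDGF and 24.95 CPM in PDGFNO (log2 fold change 1.03, adjusted p = 0.00429 by edgeR). The part of these shared bases in the rise of MCAM was not tested.

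ANPEP and NT5E encode ectoenzymes, a membrane aminopeptidase that trims peptides and the nucleotidase that makes adenosine from AMP outside the cell. ANPEP stood at 169, 228 and 215 CPM in PDGF and at 106, 132 and 151 CPM in PDGFNO. The lowest PDGF library, that of batch 1, was above the highest PDGFNO library by a small margin. The log2 fold change was 0.65 ± 0.18 (SE, adjusted p = 0.0399 by edgeR). This call held in only 1 of the 6 fits that left out a library, the one without PDGF replicate 1, and the adjusted p reached 0.13 without PDGF replicate 2, 0.118 without PDGF replicate 3 or PDGFNO replicate 2, 0.0553 without PDGFNO replicate 1 and 0.0569 without PDGFNO replicate 3. Among genes with at least 10 counts in every library it was 0.0567.

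NT5E stood at 15.5, 13.5 and 12.6 CPM in PDGF and 6.32, 4.50 and 4.80 CPM in PDGFNO. The groups were well apart, with a log2 fold change of 1.41 ± 0.22 (SE, adjusted p = 0.00386 by edgeR) that passed without any 1 library. An antisense non-coding gene shares 122 of the 4116 exonic bases of NT5E, at chr4:87753568-87799244, and its counts were not analysed here.

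The adenosine pathway and other direct partners of the markers were read beside them. SLC29A1, an equilibrative nucleoside transporter, was at 32.9, 57.2 and 56.1 CPM in PDGF and 17.2, 22.5 and 22.4 CPM in PDGFNO (log2 fold change 1.23, adjusted p = 0.0114 by edgeR). Its counts are identical in every library to those listed for HSP90AB1, so they cannot be assigned to SLC29A1 with certainty. ADA, the deaminase that removes adenosine, was at 0.513 ± 0.054 CPM in PDGF and 1.41 ± 0.28 CPM in PDGFNO (SD, n = 3, log2 fold change −1.45, adjusted p = 0.043 by edgeR), and its call did not hold in any of the 6 fits that left out a library (adjusted p of at most 0.149). Of 21 partner genes listed, 13 were tested, 2 were higher and 1 was lower (4 and 3 with the replicate block), and their median log2 fold change was 0.20. Over all genes tested, 7.61% were higher and 10.7% lower (31.1% and 29.0% with the replicate block). The adenosine receptor ADORA2B was not analysed here.

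ABCC9 encodes the sulfonylurea receptor subunit of the ATP-sensitive potassium channel of mural cells, whose pore is KCNJ8. It stood at 8.57, 9.85 and 7.36 CPM in PDGF and at 5.83, 3.54 and 5.58 CPM in PDGFNO. The groups did not overlap, yet the log2 fold change of 0.78 ± 0.26 did not pass without a block (adjusted p = 0.0728 by edgeR). With the replicate block the log2 fold change was 0.79 ± 0.23 (SE, adjusted p = 0.00601), and with the block and a correction for GC content and transcript length together it was 0.42 (adjusted p = 0.136). DESeq2 without a block also called it (adjusted p = 0.0432). The channel subunits KCNJ8 and KCNJ11 were not analysed here, and the related receptor ABCC8 had no count in any library.

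THY1 and PDPN encode surface glycoproteins, THY1 a small lipid-anchored protein of fibroblasts, stromal cells and some stem cells, PDPN a mucin-like protein of lymphatic endothelium, epithelia and stromal fibroblasts. Both were lower in every PDGF library than in any PDGFNO library. PDPN stood at 78.8, 85.8 and 85.4 CPM in PDGF and at 151, 170 and 162 CPM in PDGFNO. Its libraries were the tightest of all the markers, and the log2 fold change of −0.95 ± 0.13 (SE, adjusted p = 0.00213 by edgeR) stayed between −1.01 and −0.90 with each library left out.

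THY1 stood at 24.8, 31.0 and 29.3 CPM in PDGF and at 35.2, 41.8 and 46.7 CPM in PDGFNO. Its log2 fold change of −0.54 ± 0.17 did not pass without a block (adjusted p = 0.0659 by edgeR) and did so with the replicate block (−0.54 ± 0.10, adjusted p = 5.15e-05). It passed too without PDGFNO replicate 1 (−0.65, adjusted p = 0.0269 by edgeR), with upper quartile normalization (adjusted p = 0.0397) and in DESeq2 (adjusted p = 0.0354). A correction for GC content and transcript length brought the log2 fold change to −0.28 (adjusted p = 0.0427 without the block and 0.0166 with it).

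The genes MCAM and THY1 are neighbours, 86.6 kb apart on chromosome 14 (THY1 at chr14:112476657-112482017) and on the same strand. Their changes had opposite signs.

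PDPN is shared with lymphatic endothelium, for which the transcription factor PROX1 and the hyaluronan receptor LYVE1 are used as markers. PROX1 was at 4.93, 5.94 and 4.21 CPM in PDGF and at 0.903, 1.25 and 1.37 CPM in PDGFNO. LYVE1 was at 11.1, 10.01 and 11.1 CPM in PDGF and at 1.97, 0.766 and 0.098 CPM in PDGFNO. Both were thus higher in PDGF (log2 fold changes 2.1 and 3.44, adjusted p = 0.0035 and 0.00523 by edgeR), where PDPN was lower. FLT4, with 9 counts in PDGF and 3 in PDGFNO, was under the filter. CLEC1B, the platelet receptor that binds PDPN, had no count, and MSN, which encodes one of the proteins that tie PDPN to the cytoskeleton, was at 708 ± 26.7 CPM in PDGF and 490 ± 4.41 CPM in PDGFNO (SD, n = 3, log2 fold change 0.53, adjusted p = 0.0126 by edgeR). The MSN call did not hold without replicate 2 or 3 of either group (adjusted p of at most 0.0633).

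LEPR encodes the leptin receptor, a marker of perivascular stromal cells in bone marrow. It had 4, 2 and 7 counts in the PDGF libraries and 4, 4 and 2 in the PDGFNO libraries. The ratio of the summed levels was 1.04, with an exact 95% interval from 0.422 to 2.66 that covers counting error only, so no difference was detectable at this depth. LEPROT, the leptin receptor overlapping transcript, was at 15.5 ± 1.82 CPM in PDGF and 13.03 ± 1.99 CPM in PDGFNO (SD, n = 3, adjusted p = 0.398 by edgeR). LEP, the ligand, had no count in any library.

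**Figure D2:**
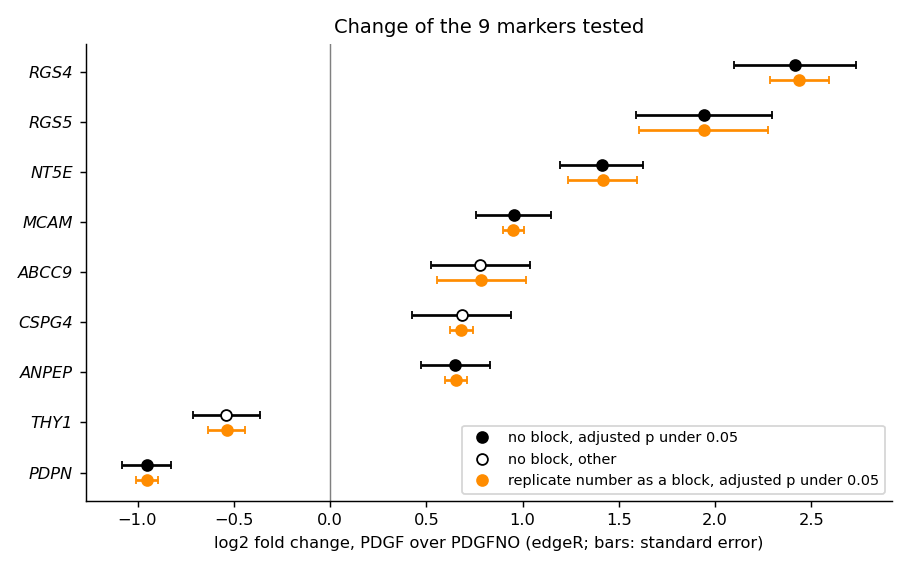
Log2 fold change of the 9 tested markers, PDGF over PDGFNO, from edgeR without (black) and with (orange) a replicate block, with bars for the standard error and open points where the adjusted p was not under 0.05. The fold changes hardly differ between the fits, while the bar of CSPG4 shrinks from 0.26 to 0.06.

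The markers differed between batches as well as between groups. By the rule that both batch 2 libraries of a group lie on the same side of its batch 1 library, batch 2 was higher than batch 1 in both groups for 5 of the 9 tested markers (CSPG4, MCAM, ANPEP, THY1 and PDPN), lower in both groups for 2 (RGS4 and NT5E), and neither for 2 (RGS5 and ABCC9). The share of all genes that meet this rule was not computed, so these counts are not read as a trait of the markers. For CSPG4 the batches differed by 0.72 on the log2 scale in PDGF and by 0.70 in PDGFNO, about as much as the groups did. For PDPN they differed by only 0.12 and 0.13.

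The change between groups had the same sign in both batches for all 9. For the 8 markers whose groups did not overlap this follows from the lack of overlap, so only CSPG4 could have differed. The log2 difference was 2.25 in batch 1 and 2.63 in batch 2 for RGS4, 1.85 and 2.04 for RGS5, and 1.29 and 1.48 for NT5E. It was 0.92 and 0.97 for MCAM, 0.67 and 0.69 for CSPG4, and 0.67 and 0.65 for ANPEP. ABCC9 had the widest gap relative to its size, 0.55 in batch 1 and 0.93 in batch 2, while THY1 (−0.50 and −0.55) and PDPN (−0.94 and −0.96) hardly differed. Batch 1 holds 1 library a group, so its values have no replicate check.

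A test of the difference itself, the group by batch interaction in edgeR, called 0 of the 11539 genes (0%), with 526 at an unadjusted p under 0.05, and the smallest unadjusted p of a marker was 0.43. With RLE normalization it called 0 as well, with 554 at an unadjusted p under 0.05.

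**Figure D3:**
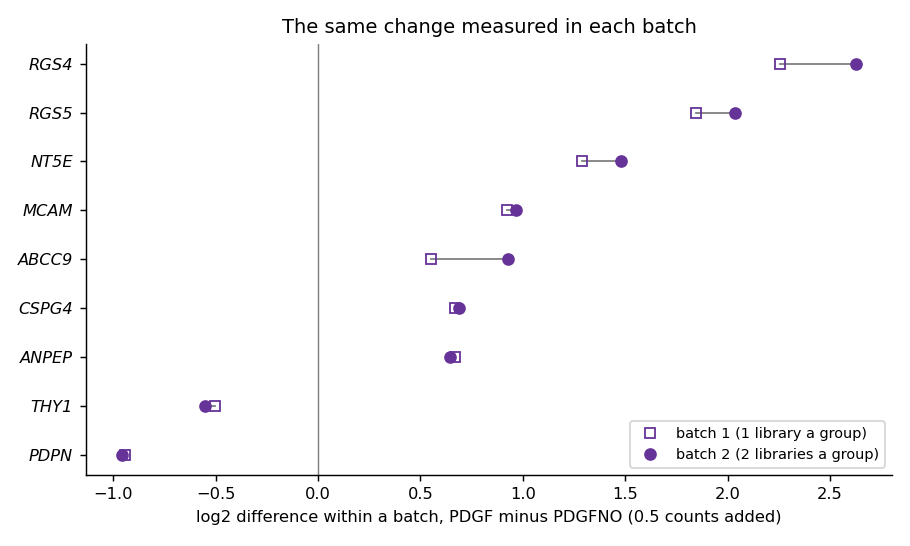
Log2 difference of each tested marker within batch 1 (open squares, 1 library a group) and within batch 2 (filled circles, 2 libraries a group), PDGF minus PDGFNO, computed with 0.5 counts added. Each pair lies on the same side of 0, which the lack of overlap between the groups fixes for all but CSPG4. RGS4 is at 2.25 and 2.63 and PDPN at −0.94 and −0.96.

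Levels of different genes can be set side by side only per length. Per kilobase of the longest annotated transcript, the order in PDGF was MCAM (59.3 ± 10.8 CPM per kb, SD, n = 3), ANPEP (57.1 ± 8.56), PDPN (26.8 ± 1.25), CSPG4 (15.1 ± 3.95), THY1 (14.5 ± 1.63), RGS4 (10.8 ± 1.78), NT5E (3.38 ± 0.36), ABCC9 (1.12 ± 0.16), RGS5 (1.07 ± 0.22) and LEPR (0.061 ± 0.036). The libraries of MCAM and ANPEP overlapped, as did those of CSPG4 and THY1, THY1 and RGS4, and ABCC9 and RGS5, so these neighbours cannot be ordered.

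In PDGFNO the order began with PDPN (51.8 ± 3.05 CPM per kb), followed by ANPEP (36.3 ± 6.27), MCAM (30.6 ± 5.47), THY1 (21.0 ± 2.96) and CSPG4 (9.42 ± 2.42). Next came RGS4 (2.02 ± 0.84), NT5E (1.27 ± 0.24), ABCC9 (0.647 ± 0.163), RGS5 (0.275 ± 0.102) and LEPR (0.058 ± 0.018). Here ANPEP overlapped with MCAM, and RGS4 with NT5E. On this scale RGS5, though among the markers with the largest fold, was next to last in PDGFNO and not separable from ABCC9 in PDGF.

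The order depends on the length used. Per kilobase of coding sequence PDPN was first in both groups (171 ± 8.04 CPM per kb in PDGF and 332 ± 19.5 in PDGFNO) over a coding length of 486 bases, and RGS5 was not separable from CSPG4 and NT5E in PDGF or from NT5E in PDGFNO.

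**Figure D4:**
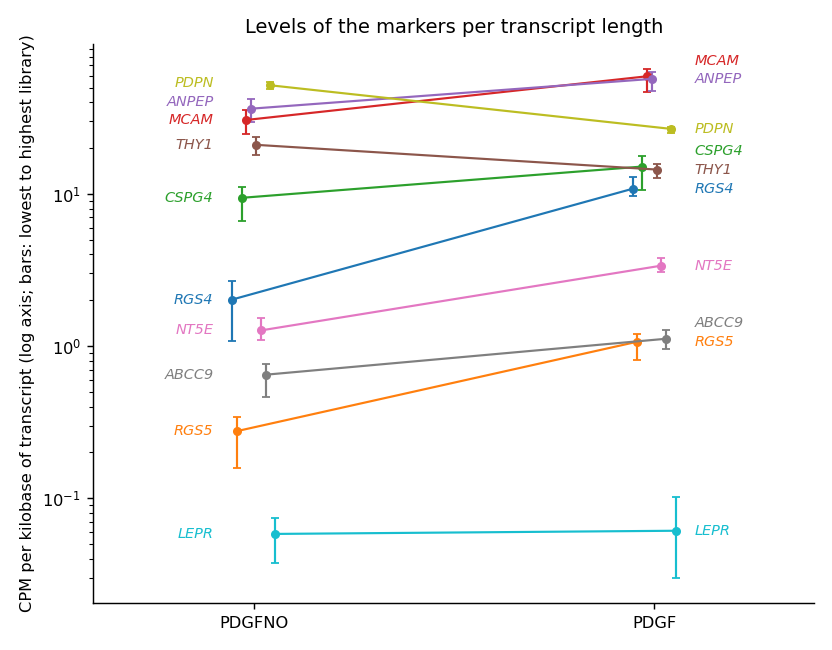
Level of each marker in CPM per kilobase of the longest annotated transcript, on a log axis, in PDGFNO and PDGF, with points for the mean of 3 libraries and bars from the lowest to the highest library. PDPN goes from 51.8 in PDGFNO to 26.8 in PDGF while MCAM goes from 30.6 to 59.3, and LEPR stays near 0.06 in both.

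Further genes of pericytes were read from a list of 23. PDGFRB, the receptor that binds PDGF-B, was at 267, 341 and 370 CPM in PDGF and at 280, 347 and 336 CPM in PDGFNO. These levels overlapped almost entirely (log2 fold change 0.02 ± 0.16, adjusted p = 0.936 by edgeR, and 0.793 with the replicate block). S1PR3, a receptor for sphingosine 1-phosphate, was at 68.9, 67.0 and 65.0 CPM in PDGF and 27.7, 22.9 and 25.1 CPM in PDGFNO (log2 fold change 1.41 ± 0.15, adjusted p = 0.000659 by edgeR). CD248, also called endosialin, was at 71.3 ± 21.8 CPM in PDGF and 33.8 ± 8.27 CPM in PDGFNO (SD, n = 3, log2 fold change 1.08, adjusted p = 0.0325 by edgeR), but not without replicate 2 or 3 of either group (adjusted p of at most 0.10).

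The contractile genes of the same list were lower in PDGF. DES, which encodes the muscle intermediate filament desmin, was at 2.90, 4.14 and 3.61 CPM in PDGF and at 26.5, 38.1 and 38.4 CPM in PDGFNO (log2 fold change −3.27 ± 0.24, adjusted p = 0.000151 by edgeR). ACTA2, smooth muscle actin, was at 136, 146 and 134 CPM in PDGF and 300, 322 and 328 CPM in PDGFNO (log2 fold change −1.19 ± 0.12, adjusted p = 0.000603 by edgeR). TAGLN, with the highest CPM of the list over all 6 libraries though below PDGFRB in PDGF, was at 289 ± 59.1 CPM in PDGF and 466 ± 93.5 CPM in PDGFNO (SD, n = 3) and did not pass without the replicate block (log2 fold change −0.69, adjusted p = 0.0544 by edgeR, 1.32e-11 with the block), except when PDGFNO replicate 1 was left out (adjusted p = 0.011). Of the 15 genes of this list that were tested, 2 were higher and 2 lower, with a median log2 fold change of 0.20, and with the replicate block 6 were higher and 4 lower. Over all genes the shares were 7.61% and 10.7% without the block and 31.1% and 29.0% with it, so nothing is read from the blocked counts. NDUFA4L2 had no count in any library, and KCNJ8, HIGD1B, COX4I2 and HEYL were not analysed here.

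Among 23 further mesenchymal genes, 20 were tested, 5 were higher and 4 lower (10 and 7 with the replicate block), and their median log2 fold change was 0.07. The shares over all genes are those just given, and nothing is read from the blocked counts here either. NES, the intermediate filament nestin, was at 72.2, 78.0 and 82.0 CPM in PDGF and at 12.5, 17.3 and 13.4 CPM in PDGFNO (log2 fold change 2.42 ± 0.18, adjusted p = 0.000156 by edgeR). FAP, a protease of activated fibroblasts, was at 542, 421 and 423 CPM in PDGF and at 1126, 924 and 879 CPM in PDGFNO (log2 fold change −1.08 ± 0.16, adjusted p = 0.00312 by edgeR). COL3A1, a fibrillar collagen, was at 2852 ± 88.5 CPM in PDGF and 5972 ± 249 CPM in PDGFNO (SD, n = 3, log2 fold change −1.07, adjusted p = 0.000421 by edgeR) and passed without any 1 library. Another fibrillar collagen, COL1A1, which had the highest CPM over all 6 libraries though less than COL3A1 in PDGFNO, was at 6841 ± 2384 CPM in PDGF and 4522 ± 1558 CPM in PDGFNO (SD, n = 3), and its log2 fold change of 0.60 did not pass without the replicate block (adjusted p = 0.245 by edgeR, 4.98e-14 with the block).

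ENG (CD105), which is used with THY1 and NT5E to recognise mesenchymal stromal cells, was at 881 ± 231 CPM in PDGF and 799 ± 217 CPM in PDGFNO (SD, n = 3, log2 fold change 0.14, adjusted p = 0.739 by edgeR, 0.00266 with the replicate block). CD44 was at 166 ± 18.1 and 126 ± 15.9 CPM (log2 fold change 0.40, adjusted p = 0.105 by edgeR, 1.28e-06 with the replicate block, 0.0485 without PDGFNO replicate 1). So in these libraries NT5E was higher in PDGF, THY1 had the opposite sign and did not pass without the block, and ENG and CD44 did not pass without the block. PDGFRA was at 550 ± 71.7 CPM in PDGF and 812 ± 132 CPM in PDGFNO (log2 fold change −0.56, adjusted p = 0.0439 by edgeR), but its counts are identical to those listed for FIP1L1 and cannot be assigned with certainty, and the call held only without PDGF replicate 1 (adjusted p of at most 0.149).

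Genes that such stromal cells should lack were read as well. PTPRC and CD79B had no count in any library, and CD14 stood at 1.12 ± 0.39 CPM in PDGF and 1.52 ± 0.59 CPM in PDGFNO (adjusted p = 0.53 by edgeR). CD34, a gene of endothelium and of many tissue fibroblasts, was at 61.0, 63.7 and 61.4 CPM in PDGF and at 49.0, 41.0 and 39.4 CPM in PDGFNO (log2 fold change 0.52, adjusted p = 0.0422 by edgeR), a call that held only without PDGFNO replicate 1 (adjusted p of at most 0.155).

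**Figure D5:**
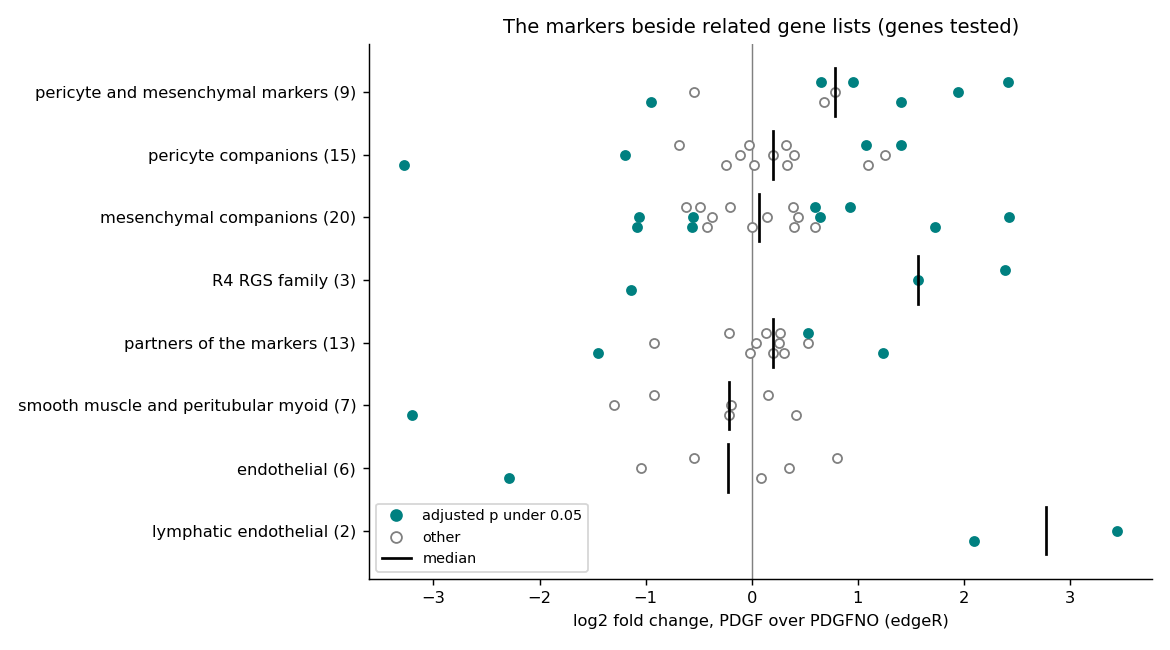
Log2 fold change, PDGF over PDGFNO, of the tested genes of 8 lists, with the number tested in brackets, filled points where the edgeR adjusted p was under 0.05 and a black line at the median. The median of the 9 markers is 0.78, and the companion lists have medians of 0.20 (pericyte) and 0.07 (mesenchymal) with genes far out on both sides.

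Markers of other cell types moved with the groups, and their part in the changes above was not tested. Their calls stand beside shares over all genes of 7.61% higher and 10.7% lower (31.1% and 29.0% with the replicate block). Over the 8 smooth muscle and peritubular myoid genes the summed level ran from 86.1 to 98.3 CPM in PDGF and from 323 to 375 CPM in PDGFNO. Most of the PDGFNO sum, and of its difference from PDGF, was MYLK. The median log2 fold change of the 7 tested was −0.21. The gene that moved most was MYLK, a myosin kinase (30.9 ± 0.77 and 284 ± 30.9 CPM, log2 fold change −3.20, adjusted p = 3.29e-05 by edgeR), the only 1 of 7 tested that passed without the replicate block, with which 3 were lower. Over 7 epithelial genes (of 8 listed) the sum ran from 37.6 to 54.9 CPM in PDGF and from 178 to 244 CPM in PDGFNO, with 4 of 6 tested lower (5 with the replicate block), from KRT7 (0.729 ± 0.254 and 108 ± 18.6 CPM, log2 fold change −7.18, adjusted p = 3e-05) to PAX8 (log2 fold change −1.12, adjusted p = 0.00878). Over 3 lymphatic genes (of 4 listed) the sum ran from 15.9 to 16.1 CPM in PDGF and from 1.76 to 2.87 CPM in PDGFNO, with 2 of 2 tested higher.

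Over 9 endothelial genes (of 10 listed) the sum ran from 12.4 to 12.9 CPM in PDGF and from 9.94 to 14.8 CPM in PDGFNO. Of 6 tested only ERG passed without the replicate block (1 was higher and 2 lower with it), and it was lower (0.404 ± 0.249 and 1.98 ± 0.65 CPM, log2 fold change −2.29, adjusted p = 0.0253 by edgeR), and not without PDGF replicate 1 or 3 or PDGFNO replicate 2 or 3 (adjusted p of at most 0.0925). PECAM1, with the highest CPM among them, was at 5.74 ± 0.69 and 3.31 ± 1.37 CPM (adjusted p = 0.134 by edgeR, 0.0183 with the replicate block).

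Of the testicular cell types, 5 Sertoli genes (of 8 listed) summed to 1448 to 1917 CPM in PDGF and 866 to 1165 CPM in PDGFNO, nearly all of it CLU (1610 ± 238 and 935 ± 139 CPM, log2 fold change 0.78, adjusted p = 0.0133 by edgeR), which other cells express too and whose call did not hold without PDGF replicate 2 or 3 (adjusted p of at most 0.0557). It was the 1 of 3 tested that passed, and the Sertoli genes FATE1 and FSHR had no count in PDGF and 33 and 2 counts in PDGFNO. The 6 Leydig genes summed to 259 to 324 CPM in PDGF and 216 to 258 CPM in PDGFNO, nearly all of it listed for STAR (log2 fold change 0.34, adjusted p = 0.136 by edgeR, 6.07e-06 with the replicate block). The counts of STAR are identical in every library to those listed for LSM1 and cannot be assigned with certainty. CYP11A1, which starts steroid synthesis, had no count in any library, and of the 2 Leydig genes tested none passed without the block and 1, STAR, was higher with it.

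The germ cell genes bear on the label of the culture. Of 9 listed, 6 were in the table and summed to 129 to 136 CPM in PDGF and 152 to 180 CPM in PDGFNO, and ID4, which many other cells express, held nearly all of it (131 ± 4.22 and 163 ± 14.4 CPM, adjusted p = 0.122 by edgeR, 4.95e-05 with the replicate block). DDX4, the general germ cell gene, was at 0.305 ± 0.262 CPM in PDGF and 2.13 ± 1.31 CPM in PDGFNO (log2 fold change −2.72, adjusted p = 0.0284), and not without PDGF replicate 2 or 3 or PDGFNO replicate 2 (adjusted p of at most 0.101), as the 1 of 3 tested that passed without the replicate block. With the block all 3 were lower, DAZL among them (0.210 ± 0.241 and 1.13 ± 0.16 CPM, adjusted p = 0.0688 by edgeR without the block and 0.0118 with it). GFRA1 had 5 counts in PDGF and 18 in PDGFNO, SALL4 1 and 20, and MAGEA4 0 and 1. Apart from ID4, the listed germ cell genes in the table thus stayed at or below 3.64 CPM (DDX4 in PDGFNO replicate 2) in every library, although these are labelled testis and grown as SSCs. Germ cell genes outside this list were not read here. The study counts ID4, GFRA1 and ERBB4 among its markers of undifferentiated SSCs and stained cultured colonies for SSEA4. It also reports that culture with PDGF enhanced clone formation and sustained proliferation. In the cultured cells it further reports higher stemness scores and induced genes of an undifferentiated SSC state with PDGF. COL1A1, PDGFRB and the markers MCAM and ANPEP were well above 50 CPM in all 6 libraries, without a correction for length. Of 7 myeloid and T cell genes listed 5 were in the table, 1 was tested and none passed, with sums of 16.1 to 19.1 CPM in PDGF and 10.9 to 17.2 CPM in PDGFNO (CD68, adjusted p = 0.372, 0.105 with the replicate block).

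Totals ran from 10593805 to 14102697 counts per library and all 3 PDGF totals were higher than the PDGFNO totals. On a principal component analysis the first component (67.3% of the variance) separated the groups and the second (19.0%) the batches. Replicates 2 and 3 differed from each other less than either did from replicate 1, as the chi-square of their counts over its degrees of freedom was 3.43 in PDGF and 3.66 in PDGFNO, against 47.2 to 60.2 for pairs with replicate 1. When replicates 2 and 3 were summed to 1 library a group and batch, RGS4 and RGS5 still passed without a batch term, and MCAM (adjusted p = 0.116 by edgeR), ANPEP (0.231), NT5E (0.0514) and PDPN (0.0715) did not. All 9 tested markers passed in that setting when batch was a term in the model. That fit called 3669 genes higher and 3420 lower of 11992 tested, so nothing is read from this count of 9.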

How the data were processed

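The authors deposited expected counts per gene, unnormalized, in 1 table of 17795 genes and 6 libraries, made per the labels with fastp, HISAT2 2.1.0, SAMtools and featureCounts 2.0.1 after mRNA enrichment. As 34 values of 13 genes were not whole, all values were rounded, although the plan had assumed whole counts. The labels name the builds Mmul_10 and Mmul_8.0.1 without a role. Of the 2686 LOC identifiers 2682, and of all names 17389, are in RefSeq annotation release 103 of Mmul_10, which gave coordinates, lengths (longest transcript) and upstream sequences. Strand of counting is not given in the sources used here.

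Normalization used TMM in edgeR 4.0.16 (R 4.3.3) with filterByExpr by group, and tests were edgeR's quasi-likelihood test over all 11539 genes kept, without a block, two-sided, at a Benjamini-Hochberg adjusted p under 0.05. CPM were computed with the TMM-adjusted library sizes. The script was tested on simulated counts without a block. It recovered 89.3% of the genes changed by a log2 fold change of 2 and 49.5% of those changed by 1. Smaller changes, such as those of CSPG4, ABCC9 and THY1, were not simulated. Same-numbered libraries share a batch by the labels, and across genes the correlation of their departures from the group mean was 0.667, 0.291 and 0.308, so same-numbered libraries were taken as pairs. The cross pairs of replicates 2 and 3 gave 0.321 and 0.301, so the pairing is one by batch. DESeq2 1.42.0, limma-voom (limma 3.58.1) and other settings were alternatives, and the GC and length correction without the block was added after seeing the data. The markers and lists were chosen with earlier results of these data known. Genes named were all 10 markers, in each other list the called genes with the largest and smallest fold change and the most abundant gene, R4 family genes and direct partners. ACTA2, CBL, CD14, CD248, COL3A1, DAZL, genes under the filter and genes without a count are named outside this rule, after their values were seen. Figures used Python 3.11.15, pandas 2.3.3 and matplotlib 3.10.9.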

Additional observations from a re-analysis of the deposited data

How the results depend on the processing

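No marker changed sign under any alternative. Over the 9 tested markers and all alternatives 146 values kept their side of the threshold, 21 newly passed and 12 no longer passed. With 5 markers higher and 1 lower as reported, there were 5 higher and 2 lower under upper quartile normalization, 6 and 2 in DESeq2 and with the GC and length correction without the block, and 7 and 2 with batch as a term or in batch 2 alone. The paired fit with the replicate block gave 7 higher and 2 lower, as did the summed replicates 2 and 3 with batch as a term, and with GC and length correction it gave 6 higher and 2 lower. With at least 10 counts in every library, where RGS5 was not tested, with an adjusted p under 0.01 or with an absolute log2 fold change of at least 1, 3 were higher (0 lower for the last), and with replicates 2 and 3 summed, 2 and 0. Leaving out 1 library gave 3 to 6 higher and 1 to 2 lower, with 3 higher without PDGF replicate 2 or 3 and 2 lower without PDGFNO replicate 1. Of the pericyte companions (2 higher, 2 lower), 6 were higher and 4 lower with the replicate block, batch as a term or the summed replicates with batch, 5 and 4 in batch 2 alone, 5 higher with GC and length correction (with or without the block), 1 higher with replicates summed or an adjusted p under 0.01, and 1 to 3 higher and 2 to 3 lower with 1 library left out. Of the mesenchymal companions (5 higher, 4 lower), 10 were higher and 7 lower with the block, batch as a term, batch 2 alone or the summed replicates with batch, 10 higher with GC and length correction (8 lower with the block), 2 higher and 1 lower with replicates summed, 2 and 2 at an adjusted p under 0.01 or an absolute log2 fold change of at least 1, 2 lower without a filter, and 2 to 5 higher and 2 to 4 lower with 1 library left out. PDPN ranked 3 in PDGF per transcript length and 1 per coding length. Over all genes, 878 higher and 1230 lower became 3587 and 3347 with the replicate block, 3604 and 3387 with batch as a term, 3041 and 3085 in batch 2 alone, 3669 and 3420 with the summed replicates and batch, 206 and 487 with the summed replicates alone, 2416 and 2432 with GC and length correction, 3234 and 3124 with this and the block, 358 and 544 at an adjusted p under 0.01, 393 and 890 at the fold threshold, and 435 to 1284 and 726 to 1726 with 1 library left out. Under upper quartile normalization the all-gene counts were 680 and 1414, with a median log2 fold change of −0.05 over all genes. In DESeq2 they were 1181 and 1544, and with at least 10 counts in every library 694 and 865. Except for the fits with fewer genes or libraries and the changed thresholds, the cause was not tested. Depth limits RGS5 (as few as 9 counts in a library) and LEPR. The replicate block changed no call among the listed R4 family, stromal negative, lymphatic, Sertoli and myeloid genes.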
